A study of Rattus norvegicus with 6 samples.

Results

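The genes described here carry, anchor or regulate phosphate transport in the kidney: the sodium-phosphate cotransporter genes Slc34a1, Slc34a3, Slc20a1 and Slc20a2, the phosphate exporter gene Xpr1, the scaffold gene Pdzk1, and the receptor genes Pth1r and Fgfr1. They are 8 genes of the 12340 with a gene symbol and of the 31190 transcripts tested in all. Each was found through the accession of its probe, and a gene with several probes is represented by the probe of highest mean signal over all arrays, a choice that uses no comparison between groups. Total RNA was taken from renal cortex; the donors were 6 Sprague-Dawley males (Crl:CD(SD)), bought at 5 weeks of age and kept on a basal diet. Of these, 3 rats received corn oil and 3 received carbon tetrachloride, a chlorinated solvent toxic to liver and kidney, at 100 mg/kg/day, both for 4 weeks, and each rat gave 1 single-colour array. The series' design text speaks of benzyl acetate, whereas the title and all sample labels give carbon tetrachloride, the name used here. Whole cortex holds glomeruli, vessels and every cortical tubule segment, and in such bulk RNA fewer cells of a type and less RNA per cell cannot be told apart.

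As background, the kidney sets blood phosphate by reabsorbing filtered phosphate in the proximal tubule, where the cotransporters of the SLC34 and SLC20 families take it up across the brush border together with sodium. Parathyroid hormone, acting on PTH1R, and the bone hormone FGF23, acting on FGFR1 with the co-receptor klotho, both lower this reabsorption, largely by removing NaPi-IIa, the protein of Slc34a1, from the brush border. Much of this control acts on the protein in the membrane, which an RNA measurement does not see.

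None of the 8 genes differed between carbon tetrachloride and corn oil beyond the spread between rats. Of the 8, 0 passed an adjusted p of 0.05 in limma, where 1 of all transcripts did (0.00321% called), namely XM_218564, which has no gene symbol and was noticed after its value was seen. At an unadjusted p under 0.05 there were also 0 of the 8, beside 6.28% of all transcripts. In 0 of the 8 did the 3 treated values lie wholly apart from the 3 control values, which they did for 12.8% of all transcripts (7.5% higher and 5.3% lower). The members' median log2 fold change, treated minus control, was -0.0099, against 0.0073 over all transcripts, with 3 values above 0 and 5 below. The 95% intervals of the changes reflect the spread between rats in this fit, but not differences of slide, position on the slide or choice of probe. The lowest bound of any of them was a log2 change of -0.41, for Slc34a3, and the highest was 0.51, for Pth1r. In this fit all 8 intervals lay within a 1.5-fold change in either direction.

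**Figure D1:**
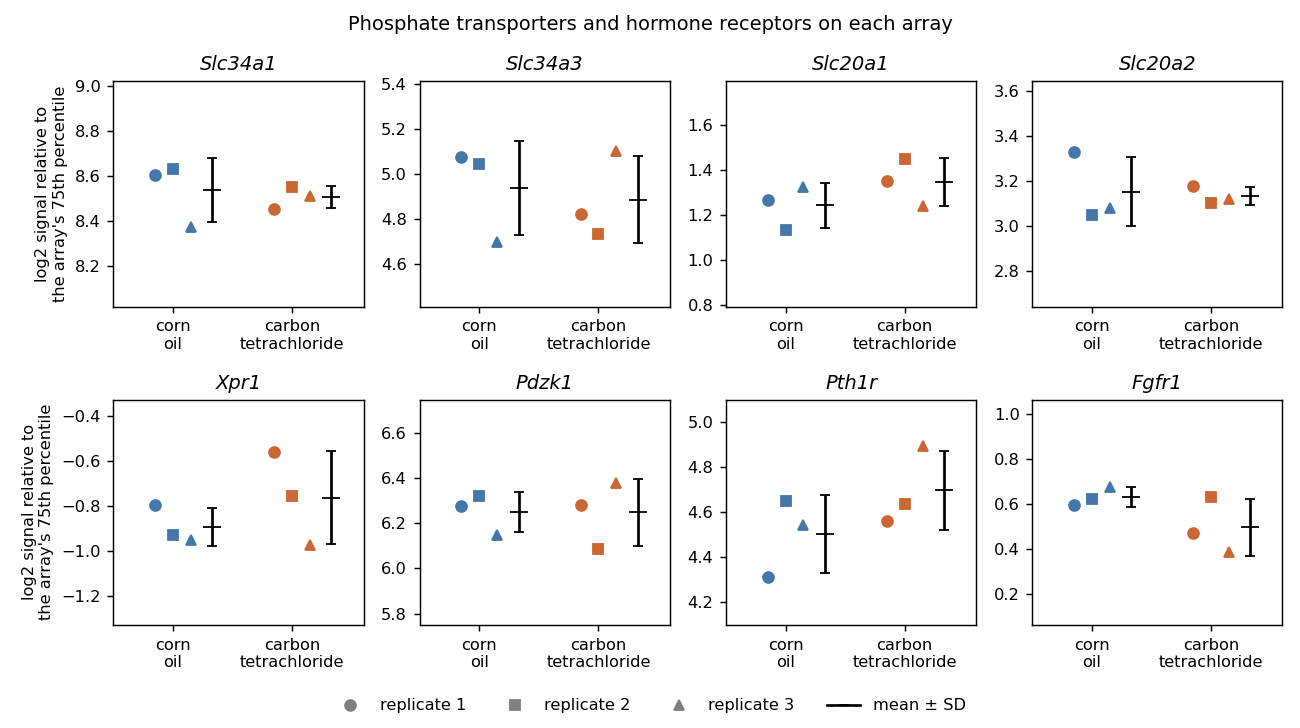
Level of each gene (vertical axis, log2 of the processed signal relative to the array's 75th percentile) on the 3 corn oil and 3 carbon tetrachloride arrays, with every panel spanning the same height. Symbols mark the replicate numbers, and bars give the group mean ± SD (n = 3). The groups overlap in all 8 panels, and the widest spread over the 6 arrays is that of Pth1r at 0.58.

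The segments before the start of the genes that make up the brush border complex, the carriers Slc34a1 and Slc34a3 and the scaffold Pdzk1, are shown because these genes share a cell type and a membrane, and because the mRNA of HNF4A, a transcription factor that acts in proximal tubule cells, was measured on the same arrays. RefSeq promoter windows (build GRCr8) matched 5 of the 8 genes, and these 3 are printed from 250 bases before the annotated start up to the start. Slc34a1 lies at chr17:9238984-9239233 on the minus strand, Slc34a3 at chr3:28447998-28448247 on the minus strand and Pdzk1 at chr2:187064745-187064994 on the plus strand. Capitals mark matches, on either strand, to CAAAGTC, part of the HNF4 motif, and to TATAAA, the TATA box, which did not overlap each other.
Slc34a1: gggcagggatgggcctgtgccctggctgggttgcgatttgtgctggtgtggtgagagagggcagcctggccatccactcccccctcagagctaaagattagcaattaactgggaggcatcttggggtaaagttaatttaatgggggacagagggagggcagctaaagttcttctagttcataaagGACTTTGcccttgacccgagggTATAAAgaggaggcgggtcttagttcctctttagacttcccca
Slc34a3: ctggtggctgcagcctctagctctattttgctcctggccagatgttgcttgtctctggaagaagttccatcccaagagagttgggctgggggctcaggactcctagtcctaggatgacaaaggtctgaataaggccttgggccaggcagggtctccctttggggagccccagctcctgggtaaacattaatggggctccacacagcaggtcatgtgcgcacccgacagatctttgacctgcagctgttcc
Pdzk1: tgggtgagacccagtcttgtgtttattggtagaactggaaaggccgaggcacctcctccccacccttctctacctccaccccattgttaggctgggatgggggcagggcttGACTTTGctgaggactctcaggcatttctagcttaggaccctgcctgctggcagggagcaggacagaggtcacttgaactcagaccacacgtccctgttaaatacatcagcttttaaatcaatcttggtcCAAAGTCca

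The Slc34a1 window held TATAAA from 43 to 38 bases before the start, and CAAAGTC on the strand opposite to the gene from 65 to 59 bases before it. The Pdzk1 window held CAAAGTC on the gene's own strand, from 9 to 3 bases before the start, and on the opposite strand from 139 to 133. The Slc34a3 window held no exact match to either string. Only these exact letters were searched, so a variant of the HNF4 motif would not be marked in any window. Over all 33469 promoter windows of the same length, CAAAGTC was found in 3.95% and TATAAA in 12.9%. The motifs were chosen with the sequences in view, and a match is a description of letters, not of a bound site.

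The sodium-phosphate cotransporters of the SLC34 family do most of the renal uptake. Slc34a1 encodes NaPi-IIa, the main phosphate carrier of the rodent brush border. Its log2 level relative to the array's 75th percentile was 8.60, 8.63 and 8.37 in corn oil replicates 1 to 3 and 8.46, 8.55 and 8.51 in carbon tetrachloride replicates 1 to 3. All 3 treated values lay between the lowest and the highest control. On the linear scale the mean signal was 372 times the 75th percentile in control rats and 364 times in treated rats, and 0 of the 6 spots were saturated. The log2 fold change was -0.030 ± 0.092 (SE, n = 3 per group; limma adjusted p = 0.963), with a 95% interval from -0.26 to 0.19, or 0.838-fold to 1.14-fold. Its sign turned without corn oil replicate 1 or 2.

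Slc34a3 encodes NaPi-IIc, a carrier that moves phosphate without net charge and whose loss in people causes hereditary rickets with phosphate wasting. Its levels were 5.07, 5.04 and 4.70 on the control arrays and 4.82, 4.73 and 5.10 on the treated arrays. Control replicate 3 and treated replicate 2 were the low arrays and treated replicate 3 the highest, so that the spread within each group, an SD of 0.21 and 0.19, exceeded the distance between the groups. The change was -0.053 ± 0.15 (adjusted p = 0.959), with an interval from -0.41 to 0.31, the widest of the set. Its sign turned when corn oil replicate 1 was left out, and likewise for carbon tetrachloride replicate 2, and without carbon tetrachloride replicate 3 the value was -0.16.

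Pdzk1 encodes a protein with several PDZ domains that holds NaPi-IIa and other transporters in the brush border. Its levels were 6.28, 6.32 and 6.15 in control rats and 6.28, 6.09 and 6.38 in treated rats. The treated rats gave both the lowest and the highest value. The group means were nearly equal, with a change of -0.00056 ± 0.10 (adjusted p = 0.999) and an interval from -0.25 to 0.25, and 0.372% of all transcripts had a smaller fitted change. Leaving out corn oil replicate 1 or 2, or the second treated array, gave a value above 0.

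The SLC20 carriers are expressed in most tissues. Slc20a1, which encodes PiT-1, had levels of 1.27, 1.13 and 1.33 on the control arrays and 1.35, 1.45 and 1.24 on the treated arrays. Treated replicates 1 and 2 lay above every control, and replicate 3 lay among them. The change was 0.10 ± 0.089 (adjusted p = 0.851), with an interval from -0.12 to 0.32. It was 0.050 without corn oil replicate 2, 0.052 without carbon tetrachloride replicate 2, and 0.16 without carbon tetrachloride replicate 3. Slc20a2 encodes PiT-2, which in the rat also sits in the proximal brush border. Its levels were 3.33, 3.05 and 3.08 in control rats and 3.18, 3.10 and 3.12 in treated rats. Control replicate 1 alone stood high, and all 3 treated values lay inside the control range. The change was -0.019 ± 0.095 (adjusted p = 0.981), with an interval from -0.25 to 0.21, and its sign turned without corn oil replicate 1, with normexp background correction or with another choice of probe.

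Xpr1 encodes the exporter through which cells release phosphate, which responds to inositol pyrophosphates. Its signal was the lowest of the set against the scale of the arrays, at 0.539 times the 75th percentile in control rats and 0.589 times in treated rats, and every array read it well above its background. The log2 levels were -0.79, -0.93 and -0.95 in control rats and -0.56, -0.75 and -0.97 in treated rats. Treated replicate 1 was the highest array and treated replicate 3 the lowest. The change was 0.13 ± 0.12 (adjusted p = 0.862), with an interval from -0.17 to 0.42. It was 0.027 without carbon tetrachloride replicate 1, and 0.23 without replicate 3 (limma adjusted p = 0.734), the only array of this series on a second slide.

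Pth1r encodes the receptor for parathyroid hormone. Its levels were 4.31, 4.65 and 4.54 in control rats and 4.56, 4.64 and 4.89 in treated rats. Treated replicate 3 stood above all other arrays and control replicate 1 below them, and the other 4 arrays lay together. The change was 0.20 ± 0.13 (adjusted p = 0.834), with an interval from -0.12 to 0.51, or 0.918-fold to 1.43-fold. Without carbon tetrachloride replicate 3, and so within the slide that held both groups, it was 0.098, although on that slide the groups lay in different rows. Without corn oil replicate 1 it was 0.10.

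Fgfr1 encodes the receptor tyrosine kinase that, with klotho, receives FGF23, and it is also expressed outside the tubule. Its levels were 0.59, 0.62 and 0.68 on the control arrays and 0.47, 0.63 and 0.39 on the treated arrays. Treated replicates 1 and 3 lay below every control, and replicate 2 lay among them. The change was -0.13 ± 0.086 (adjusted p = 0.834), with an interval from -0.34 to 0.075. Without carbon tetrachloride replicate 2 it was -0.20, with an unadjusted p of 0.0447 and an adjusted p of 0.807 in limma. Without carbon tetrachloride replicate 3, the array on the second slide, it was -0.079 (adjusted p = 0.857).

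**Figure D2:**
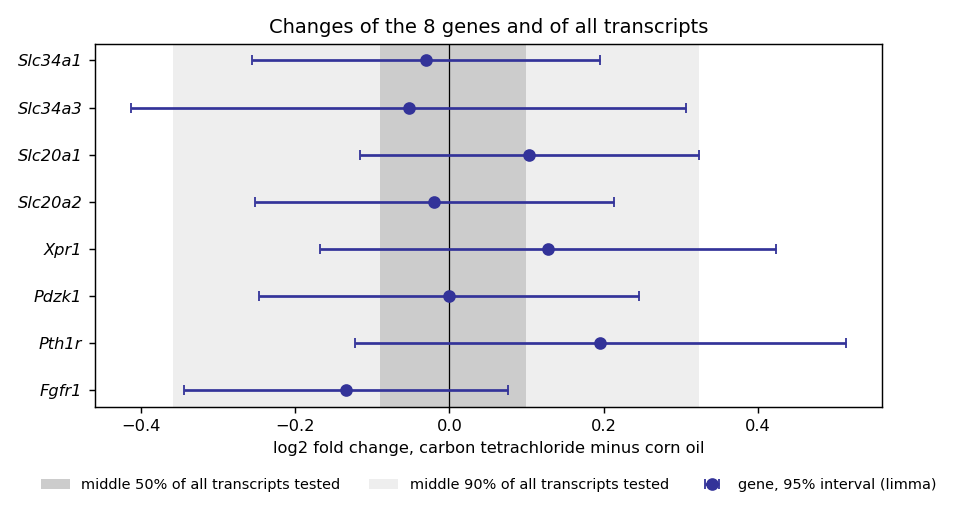
Log2 fold change of each of the 8 genes, carbon tetrachloride minus corn oil (horizontal axis), with its 95% interval from limma. The grey bands hold the middle 50% of all transcripts tested, from -0.09 to 0.10, and the middle 90%, from -0.36 to 0.32; every interval crosses 0.

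Genes with several probes allow the measurement to be repeated on the same arrays, although not in other rats. All 3 probes of Fgfr1 had a value below 0, at -0.13, -0.18 and -0.065, and both probes of Slc20a1 had a value above 0, at 0.10 and 0.15. The 4 probes of Slc20a2 differed in direction, with 2 above 0 and 2 below, as did the 2 probes of Xpr1, at 0.13 and -0.011. For Slc34a1 both were below 0, at -0.030 for the chosen probe and -0.10 ± 0.18 for the second. The second Slc34a1 probe read 6.35 on carbon tetrachloride replicate 2, under its values of 6.81 to 7.01 on the other 5 arrays, whereas the chosen probe read 8.55 on that array, within its range elsewhere. For the probes of Slc20a2, control replicate 1 was the highest control array each time. No probe of the 8 genes passed an adjusted p of 0.05 over all probes in limma.

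**Figure D3:**
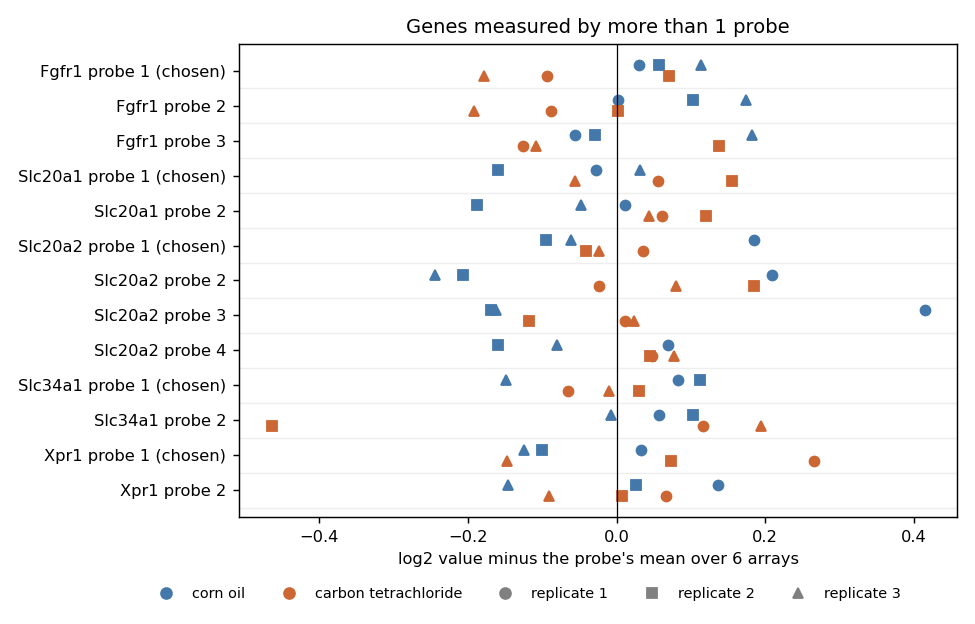
Values of the 5 genes with more than 1 probe, as the log2 value on each array minus the probe's mean over 6 arrays (horizontal axis), with corn oil in blue above and carbon tetrachloride in orange below in each row. The point at the far left is the second Slc34a1 probe on carbon tetrachloride replicate 2.

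Ratios within an array do not depend on the factor by which an array is scaled, and 4 of them were compared between the groups with an exact permutation test, two-sided, for which 3 against 3 rats allow no p below 0.1. The log2 ratio of Slc34a1 to Slc34a3, the brush border carriers, was 3.60 ± 0.074 (SD, n = 3) in control rats and 3.62 ± 0.21 in treated rats (exact p = 0.9). That of Slc34a1 to its scaffold Pdzk1 was 2.29 ± 0.056 and 2.26 ± 0.18 (exact p = 0.8). The sign of each turned when single arrays were left out. Both ratios spread more among the treated than among the control rats, a difference in spread that was not tested. The ratio of Slc20a1 to Slc20a2 was -1.91 ± 0.15 and -1.79 ± 0.12 (exact p = 0.4). The ratio of the receptors, Pth1r to Fgfr1, was 3.87 ± 0.16 and 4.20 ± 0.27, a difference of 0.33 (exact p = 0.2). The highest control value, 4.03, lay above the lowest treated value, and without carbon tetrachloride replicate 3 the difference was 0.18. Adjusted over the 4 ratios, the p-values ran from 0.8 to 0.9.

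Other genes of phosphate handling were read from 6 lists with 70 genes, of which 59 were tested. Of these, 0 passed the threshold in either direction, 29 had a value above 0 and 30 below, and the median was -0.0041. At an unadjusted limma p under 0.05 there were 4 of the 59, beside 6.28% of all transcripts. The groups lay apart for 8 of the 59, 5 of them higher and 3 lower. Of all transcripts they did so for 12.8% (7.5% higher and 5.3% lower). Among 11 other carriers and phosphate-handling proteins, none reached an unadjusted p of 0.05. Slc17a1 and Slc17a3, transporters of the SLC17 family that carry organic anions and urate, had -0.17 ± 0.13 and -0.021 ± 0.098, and Enpp1, which makes pyrophosphate, had -0.070 ± 0.089. Among 8 scaffolds and trafficking proteins of the brush border, Nherf1, which binds NaPi-IIa and PTH1R, had 0.082 ± 0.088, Nherf2 had 0.12 ± 0.095, and the kinase anchor gene Akap10 -0.080 ± 0.070. The mean level of these 8 ran from 2.83 to 2.86 in log2 units over the 6 arrays.

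Signalling genes around the receptors ranged more widely, from -0.29 to 0.38 in the parathyroid hormone list and from -0.50 to 0.55 in the FGF23 list, and 0 of them passed. In the parathyroid hormone list, with 13 genes tested, Adcy6, an adenylyl cyclase, had 0.15 ± 0.069, with 2.74, 2.81 and 2.89 in control rats and 2.95, 2.97 and 2.99 in treated rats (limma adjusted p = 0.798). Rgs14, a regulator of G protein signalling, had -0.29 ± 0.13, and Gnas, which encodes the stimulatory G protein subunit, -0.058 ± 0.062. The hormone gene Pth itself did not meet the signal filter.

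In the FGF23 and klotho list, with 17 genes tested, Kl, the klotho gene, had 0.088 ± 0.088, and Fgf23, a bone hormone, did not meet the signal filter. Fgfrl1, an FGF receptor without a kinase domain, had 0.29 ± 0.061, with 3.81, 3.86 and 3.79 in control rats against 4.10, 4.09 and 4.13 in treated rats (limma adjusted p = 0.687). These groups lay apart by more than the spread within either. Fgfr4 had 0.21 ± 0.081, again with groups that lay apart, while Fgfr2 had 0.038 ± 0.074 and Fgfr3 0.061 ± 0.11. Dusp6, a phosphatase gene that FGF signalling induces, had levels of 3.99, 4.03 and 3.77 in control rats and 3.43, 3.71 and 3.15 in treated rats, at -0.50 ± 0.16 (adjusted p = 0.770). Egr1, another gene induced by this signal, had -0.22 ± 0.43. Other genes of the list were added after their values were seen. Spry2, Spry4 and Etv5, which this signal also induces, had 0.27 ± 0.15, -0.13 ± 0.20 and -0.059 ± 0.074. Sgk1 had 0.55 ± 0.40, the highest value of the list, and 0 of these genes passed.

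Of the vitamin D and phosphate hormone genes, 6 were tested. Fam20c, which encodes a kinase of secreted proteins including FGF23, had 5.54, 5.48 and 5.59 in control rats and 5.80, 5.85 and 5.74 in treated rats, at 0.26 ± 0.069 (limma adjusted p = 0.753). Cyp27b1 and Cyp24a1 encode the enzymes that make and break down active vitamin D, which parathyroid hormone and FGF23 steer in opposite directions. Cyp27b1 had -0.0041 ± 0.32 and Cyp24a1 0.32 ± 0.24, with large differences between rats of the same group. Vdr, the vitamin D receptor gene, had 0.080 ± 0.091. Of the enzymes that make inositol pyrophosphates, Ip6k2 had -0.33 ± 0.15 and Ip6k1 0.15 ± 0.077, each with groups that lay apart and an adjusted p from 0.798 to 0.804.

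**Figure D4:**
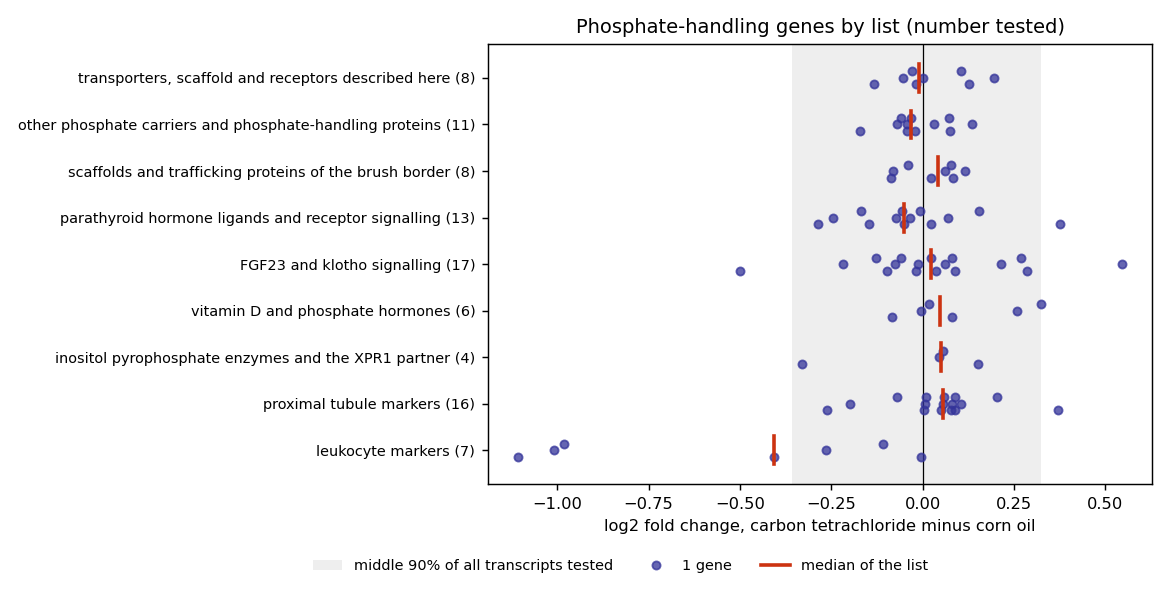
Log2 fold change of each tested gene (points; horizontal axis, carbon tetrachloride minus corn oil) by list, with the list's median (red bar) and the middle 90% of all transcripts (grey, -0.36 to 0.32). The transporter, carrier and scaffold genes lie inside the grey band, and the 3 T cell genes among the leukocyte markers lie near -1.

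The tissue was compared with markers of kidney cells, liver, adrenal gland and fat, which cannot tell cortex from whole kidney. All 16 proximal tubule markers were tested and 0 passed, with 13 values above 0 and 3 below. Their median was 0.056, against 0.0073 over all transcripts. Their mean level lay from 5.389 to 5.438 in control rats and from 5.442 to 5.470 in treated rats. The endocytic receptor gene Lrp2 had 0.087 ± 0.086, the glucose transporter gene Slc5a2 0.0049 ± 0.11, the lactate transporter gene Slc5a12 -0.20 ± 0.13, Slc7a13, a marker of the straight part of the tubule, 0.37 ± 0.37, and the transcription factor gene Hnf4a 0.0077 ± 0.073. Markers of podocytes (5 of 5) and of the loop, distal tubule and collecting duct (7 of 7) were measured too. Alb, Ttr, Star, Cyp11b1 and Cyp11b2, which define liver and adrenal gland, did not meet the signal filter. Other markers of these lists did, and are named after their values were seen. Apoa1, made mainly by liver and gut, had levels of -5.86, -5.35 and -5.46 in control rats and -4.85, -4.30 and -5.13 in treated rats, groups that lay apart, at 0.80 ± 0.24 (limma adjusted p = 0.770). The liver marker Fgb had -0.14 ± 0.16 and the adrenal marker Cyp11b3 0.53 ± 0.27 (adjusted p = 0.811), and the adipose markers Adipoq and Fabp4 had 0.061 ± 0.18 and -0.16 ± 0.61. Of the leukocyte markers, named after their values were seen, all 7 had values below 0, with a median of -0.41. At an unadjusted limma p under 0.05 there were 4, beside 6.28% of all transcripts, and 3 lay apart, all lower, beside 12.8%. These 3 were the T cell genes Cd3e (-1.1 ± 0.29), Cd3g (-1.0 ± 0.15) and Cd8b (-0.98 ± 0.086). Cd74 had -0.41, Ptprc -0.27, Cd68 -0.11 and Csf1r -0.0056. Cd3e read well above background on 3 control but only 2 treated arrays, so it met the filter through the control group only. Its value, the lowest of the list, is part of the counts and the median above. The mean level of the 7, Cd3e included, lay from -0.48 to -0.18 in control rats and from -0.92 to -0.78 in treated rats, with 0 past the threshold. The part of these markers in the values above was not tested.

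Pth1r was the 1 gene of the 8 whose values spanned at least 0.5 log2 units over the 6 arrays. Among 115 other listed genes well above background on every array, the profiles most like it, by the root mean square difference of mean-centred log2 values, were those of Slc4a4, the sodium-bicarbonate cotransporter gene of the proximal tubule, at 0.10, Fgfr3 at 0.11 and Fgfr4 at 0.11. This is a description over 6 arrays that share 2 groups.

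The arrays were alike in the share of probes read, but not in outlier flags. These fell on 15, 23 and 25 probes of the control arrays and on 3, 0 and 0 of the treated arrays. The share of the 61537 probes other than controls that read well above background ranged from 68.5% to 72.1%, and all 8 genes did so on all 6 arrays, so that none passed the filter on low signal through 1 group. The small number of arrays limits the precision of every value. The 3 control arrays and carbon tetrachloride replicates 1 and 2 shared slide 1 and its scan. Carbon tetrachloride replicate 3 was the only array of this series on slide 2, so that only slide 1 compares the groups within a slide. On slide 1 the control arrays all lay in row 1 and the treated arrays in row 2, so group and row cannot be told apart there. The median of the 8 changes within slide 1 was -0.023, and 0 of the 8 passed the threshold.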

How the data were processed

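The scanner files hold spot intensity extracted with Agilent Feature Extraction 10.7.1.1 per the file headers (10.7 in the submitters' processing notes). Per the file headers, its processed signal is a linear intensity from which background was subtracted. The authors' deposited value table is a linear intensity equal to that signal over an array-specific factor (1015 to 1092) near the 75th percentile; its column medians ran from 0.111 to 0.118, so scale, centring and direction are known. It holds 0 columns of other samples.

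Each log2 value is the processed signal relative to the 75th percentile of its array. The 1439 control spots and spots with an outlier flag (0 to 25 per array) were left out. Accessions, without version, were named through RefSeq genes of GRCr8, used for names only, which matched 28206 of the probes (45.8%). Each gene or unmatched accession is represented by its probe of highest mean, kept where every array of 1 or both groups read it well above background. The test was limma's moderated, two-sided one (limma 3.58.1, R 4.3.3), adjusted by Benjamini-Hochberg over all 31190 transcripts, at a threshold of 0.05. Per the series' design text, each group has 3 biological replicates. The code was tested on simulated data.

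The genes, gene lists and rules were chosen with earlier results of these data known. Named were the 8 genes, of each phosphate list any past the threshold, the 2 of smallest p and others taken by role, 5 tubule markers, and for a gene spanning at least 0.5 the 3 most similar listed genes. Alternatives were normexp (offset 50) on the median spot and background signals, quantile or median scaling, the deposited table, other filters and probe choices, trend and robust fitting, replicate and slide blocks, and the fit without each array.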

Additional observations from a re-analysis of the deposited data

How the results depend on the processing

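Under all 19 alternatives 0 of the 8 genes and 0 of the 59 phosphate genes passed the threshold, and Slc20a1, Pth1r and Fgfr1 kept their direction in all of them. These are not 19 separate checks of direction. The other filters, trend and robust fitting and the replicate block left these 3 fold changes as they were. For Pth1r, with 1 probe, so did the probe choices. The slide block, slide 1 alone and the fit without carbon tetrachloride replicate 3 gave the same values as each other. The count of called transcripts, 1 higher in the reported fit, was 0 after normexp under both scalings, with no filter or one on all 6 arrays, in a robust fit with a trend, and with the slide as a block or only slide 1. Leaving out 1 array gave counts between 0 (corn oil replicate 1, carbon tetrachloride replicate 2 or 3) and 2 (corn oil replicate 3, 1 higher and 1 lower); without carbon tetrachloride replicate 1 the 1 call was a lower one. Changes near 0 turned sign. Slc20a2 had 0.029 with normexp, 0.037 with normexp and quantile normalization, 0.050 with the mean of probes and 0.16 with the second probe, Pdzk1 0.0033 with the median of each array and Xpr1 -0.011 with the second probe. Without single arrays, Slc34a1 ran from -0.11 to 0.018, Slc34a3 from -0.17 to 0.024, Slc20a2 from -0.072 to 0.069 and Pdzk1 from -0.065 to 0.081. The ratio of Slc34a1 to Slc34a3 had -0.013 with the mean of probes and -0.049 with the second probe, and ran from -0.077 to 0.13 without single arrays. The ratio of Slc34a1 to Pdzk1 had 0.011 with normexp and 0.032 with the slide as a block or within slide 1, and ran from -0.13 to 0.032 without single arrays. The ratio of Slc20a1 to Slc20a2 had -0.012 with the second probe. The cause of these turns was not tested.

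The replicate numbers showed no sign of pairing in the values. Deviations of same-numbered arrays from their group means correlated at -0.023, -0.097 and -0.079, and those of other pairs across the groups at -0.045 to 0.13. Such correlations cannot show whether the design paired the rats. With the replicate number as a block, 0 transcripts were called and Pth1r had 0.20 (limma adjusted p = 0.866). With 3 arrays a group, precision is limited, and the 95% intervals are not adjusted for the number of transcripts tested.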
